A study of Homo sapiens with 6 samples.

Results

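The genes described here are 6 members of the plasminogen activation system and its serpins: PLAT, PLAU, PLAUR, SERPINE2, SERPIND1 and SERPINI1. They were taken by symbol from the 57688 rows of a gene expression table, and each symbol stood on 1 row. They were picked with the contrast between the groups already known, so their differences between groups are given as a description, with no test. RNA sequencing was run on WM3248, an established human cell line from a primary melanoma in the vertical growth phase (VGP). The siPGC1a group (n = 3) was transfected with an siRNA against PPARGC1A, the gene of the transcriptional coactivator PGC1-alpha, and the siNC group (n = 3) with a commercial negative control siRNA. Both groups received 30 nM siRNA with a lipid reagent in medium holding fetal bovine serum and epidermal growth factor, and RNA was taken after 48 h. The labels name a single siRNA product for each group and do not say whether replicate libraries are separate cultures. The p-values therefore cover only the scatter of these 6 libraries, and that scatter may be technical.

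Plasminogen is a circulating zymogen that tissue-type (tPA, from PLAT) and urokinase-type (uPA, from PLAU) activators cut into plasmin, a protease that dissolves fibrin and degrades matrix. Urokinase works at the cell surface, bound to its lipid-anchored receptor (uPAR, from PLAUR). Serpins trap such proteases by offering a bait loop that the protease cuts and cannot leave. In melanoma the system is known for its part in pericellular proteolysis and invasion.

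Depth recovered from the values was 25180000 to 26440000 reads per library. PPARGC1A stood at 0.4, 0.354 and 0.413 FPKM (reads scaled to exon length and to library depth) in the siPGC1a libraries, against 0.932, 1.04 and 0.947 FPKM in the siNC libraries. The targeted transcript was thus lower in every siPGC1a library, by 60.0% of the mean (limma adjusted p = 0.000234, exact two-sided permutation p = 0.1, the smallest that 3 against 3 can give). Of 8 melanocyte lineage markers S100B was the most abundant, at 924 ± 24.2 FPKM in siPGC1a and 802 ± 9.71 FPKM in siNC (SD, n = 3 each). DCT was at 253 ± 12.4 FPKM in siPGC1a and 394 ± 11.2 FPKM in siNC, whereas TYRP1 averaged 0.907 FPKM in siPGC1a and 1.08 FPKM in siNC. By limma 1 of these markers was higher, 4 were lower, 2 did not pass and 1 was below the filter, where over all 12020 tested genes 25.6% were higher and 22.5% lower. The immune marker PTPRC and the keratinocyte marker KRT1 were listed at 0 in all 6 libraries, and the 4 endothelial markers with a row summed to 0.818 to 0.908 FPKM in siPGC1a and 1.08 to 1.2 FPKM in siNC. Over all libraries the most abundant marker of each of these lists was KRT10 for keratinocytes, TEK for endothelium and LYZ for immune cells, at 22.4, 0.662 and 0.914 FPKM in siPGC1a and 20.6, 0.83 and 1.73 FPKM in siNC. The 7 fibroblast markers, led by THY1, summed to 36.0 to 38.6 FPKM in siPGC1a and 43.9 to 44.7 FPKM in siNC. Of these, 3 were lower by limma, none was higher, 1 did not pass and 3 were below the filter, to be read against the same 25.6% and 22.5%, and their part in the results below was not tested.

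Promoter windows from RefSeq (GRCh38.p14, 250 bases before to 50 after an annotated start) are shown for SERPINE2, the most abundant member, and for PLAUR, since these are the windows in which searched words were found. The deposited table was made on hg19, so these coordinates belong to the RefSeq table alone. Capitals mark the words. SERPINE2 has 2 annotated starts, and the window printed is that of the start at chr2:224031429-224031728, minus strand. That of PLAUR lies at chr19:43670120-43670419, minus strand.
SERPINE2: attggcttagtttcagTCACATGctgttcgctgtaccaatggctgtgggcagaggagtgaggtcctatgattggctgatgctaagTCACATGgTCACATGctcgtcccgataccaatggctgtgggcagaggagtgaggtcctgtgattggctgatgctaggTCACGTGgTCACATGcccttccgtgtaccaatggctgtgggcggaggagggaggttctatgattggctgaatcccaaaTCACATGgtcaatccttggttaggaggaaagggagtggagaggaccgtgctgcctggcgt
PLAUR: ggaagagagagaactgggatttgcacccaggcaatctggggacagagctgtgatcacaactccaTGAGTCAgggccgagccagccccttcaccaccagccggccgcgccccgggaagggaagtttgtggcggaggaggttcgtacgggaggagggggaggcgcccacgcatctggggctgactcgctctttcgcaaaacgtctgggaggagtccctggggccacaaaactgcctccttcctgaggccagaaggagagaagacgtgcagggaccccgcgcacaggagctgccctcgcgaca

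The SERPINE2 window holds 6 M-box words (TCACATG or TCACGTG on either strand), the E-box form bound by MITF and its relatives, with their first bases at -234, -165, -157, -88, -80 and -10. Of 35116 promoter windows searched, 6.92% held at least 1 such word and 6 windows (0.0171%) held 6 or more. Between the words a stretch of 33 bases is repeated, with copies starting at -217 and -140, the longest exact repeat of the window. The words at -234, -157 and -80 lie at the same spacing as these copies, as do those at -165 and -88, and -10 nearly so. The words thus recur as part of a longer, inexact repeat and are not 6 independent matches. The share of 0.0171% takes no account of this. The other SERPINE2 window, at chr2:224038591-224038890, holds none, and gene-level FPKM do not show which start was used. The M-box word was chosen after the SERPINE2 sequence had been seen. PLAUR holds 1 AP-1 word (TGAGTCA or its complement TGACTCA), at -186, a word found in 4.95% of windows. No member's window held the ERRA word TNAAGGTCA (0.951% of windows), the CRE word TGACGTCA (1.85%) or the kappaB word (5.68%), each searched on both strands. No match overlapped one of another word in the windows shown, and these are matches of letters, not binding sites. Windows on chromosome 8, which holds PLAT, were left out of the search and of the shares above, so none is shown for PLAT.

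**Figure D1:**
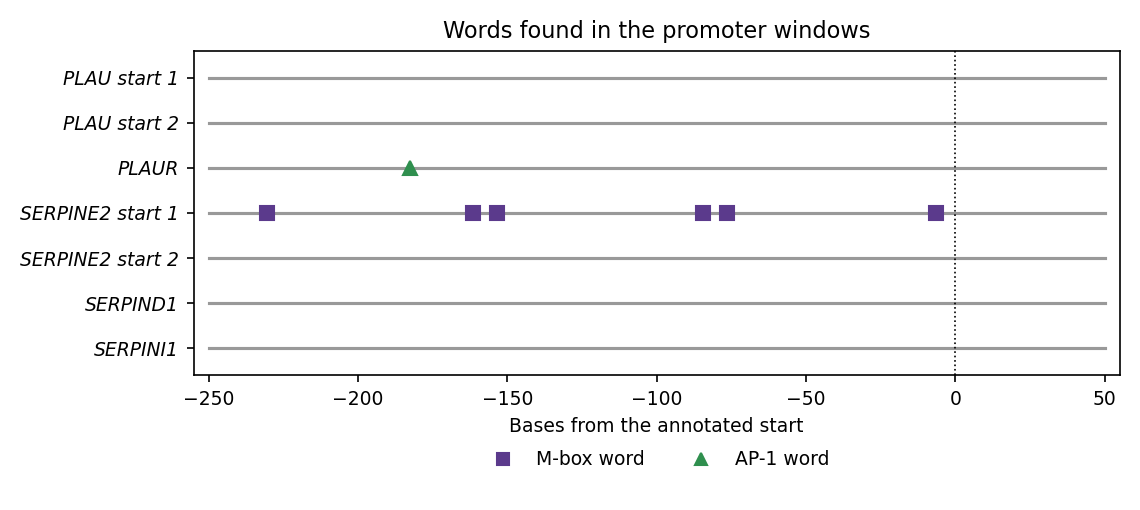
Positions of searched words in the promoter windows of 5 members, in bases from the annotated start (horizontal axis); each line is 1 window of 300 bases, squares are M-box words and triangles AP-1 words. The 6 squares lie in 1 of the 2 SERPINE2 windows, and the single triangle lies in that of PLAUR.

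Among the activators, PLAT was the abundant one. PLAT encodes tissue-type plasminogen activator. It had 50.4, 51.3 and 51.7 FPKM in the siPGC1a libraries, against 45.2, 43.7 and 44.5 FPKM in the siNC libraries. Every siPGC1a library lay above every siNC library, and the gap between the groups was 5.22 FPKM. The means were 51.1 ± 0.64 FPKM in siPGC1a and 44.5 ± 0.757 FPKM in siNC (SD, n = 3 each), a ratio of 1.15. PLAT stood between the 817th and 826th place by FPKM in siPGC1a libraries and between the 890th and 941st place in siNC libraries. Places in a library were counted among genes whose symbol stood on 1 row only.

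PLAU, which encodes urokinase, was close to the limit of what this depth can measure. Its level was 0.172, 0.162 and 0.182 FPKM in the siPGC1a libraries, against 0.218, 0.133 and 0.174 FPKM in the siNC libraries. The groups overlapped, with the highest and the lowest value both in siNC. These levels rest on 12 to 14 reads per siPGC1a library and 10 to 17 reads per siNC library. The summed reads were 39 in siPGC1a and 40 in siNC, with exact Poisson 95% intervals of 27.7 to 53.3 and 28.6 to 54.5 that cover counting error only. These intervals belong to the sum of each group and not to the difference between groups, so they set no limit of detection for it. PLAU was the 1 member of 6 below the filter of a mean of 1 FPKM, and 31.1% of its exon bases overlap C10orf55 on the other strand, a gene at 0.02 FPKM.

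PLAUR encodes the urokinase receptor, which also signals through integrins and binds vitronectin. Its level was 5.28, 5.57 and 5.15 FPKM in the siPGC1a libraries, against 4.11, 4.19 and 4.45 FPKM in the siNC libraries. The lowest siPGC1a library stood 0.704 FPKM above the highest siNC library. Means were 5.33 ± 0.215 FPKM in siPGC1a and 4.25 ± 0.178 FPKM in siNC (SD, n = 3 each), a ratio of 1.26. The receptor transcript was thus 31.0 times as abundant as that of its ligand in siPGC1a and 24.3 times in siNC, by mean FPKM. Both quotients are rough, since they rest on 39 summed PLAU reads in siPGC1a and 40 in siNC. Nothing is read from their difference.

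**Figure D2:**
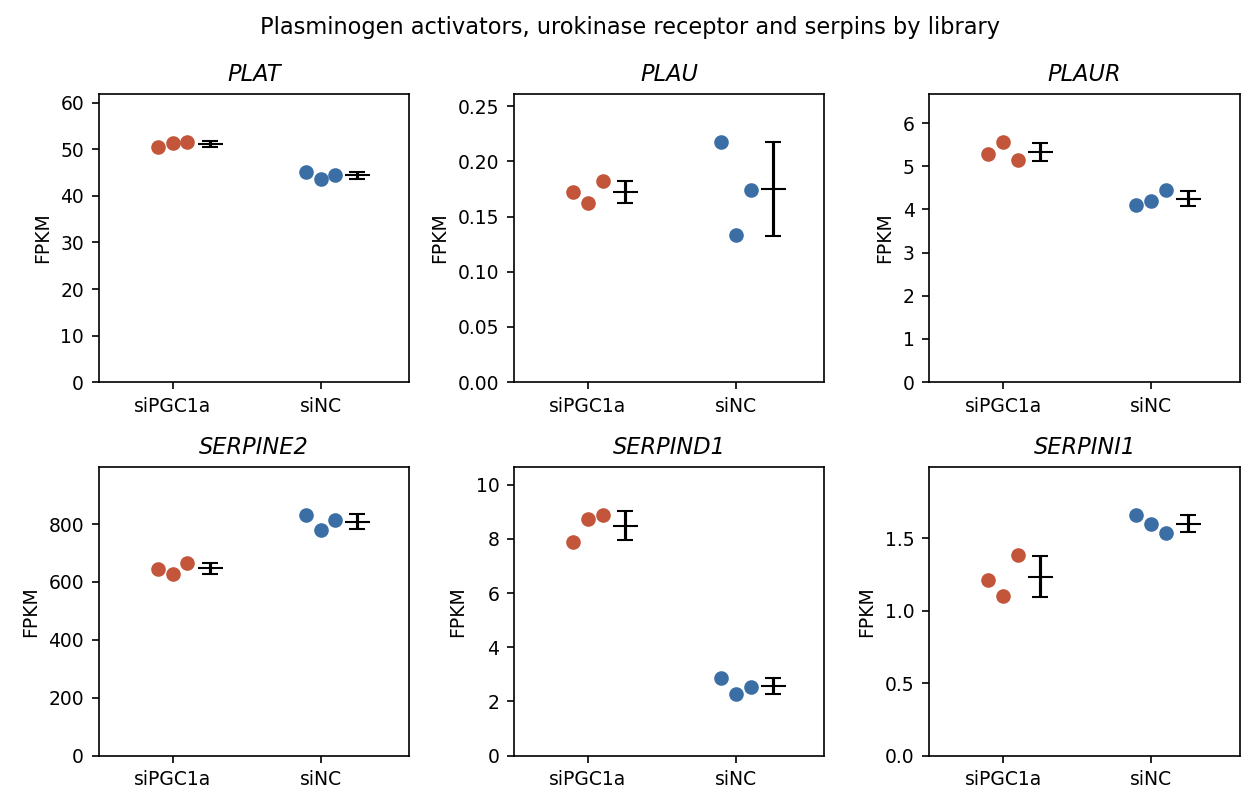
FPKM (vertical axis, from 0, scaled for each gene) of the 6 members in each siPGC1a and siNC library; points are libraries, and the horizontal mark with bars is the mean ± SD (n = 3). PLAT, PLAUR and SERPIND1 lie higher in siPGC1a, SERPINE2 and SERPINI1 lie lower, and the PLAU groups overlap.

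SERPINE2 encodes protease nexin-1, a heparin-binding inhibitor of thrombin, urokinase, tissue-type activator and plasmin. It had 646, 628 and 667 FPKM in the siPGC1a libraries, against 831, 779 and 813 FPKM in the siNC libraries. All 3 siPGC1a values were lower, with a gap of 113 FPKM between the groups. The means were 647 ± 19.2 FPKM in siPGC1a and 808 ± 26.2 FPKM in siNC (SD, n = 3 each), a ratio of 0.801. SERPINE2 was among the most abundant transcripts of these cells, at places 20 to 25 in siPGC1a libraries and 16 to 19 in siNC libraries. In absolute FPKM its difference of -161 was the largest of the 6 members, while its ratio was within the range common to many genes: 24.3% of 12020 genes with a mean of at least 1 FPKM had a ratio as far from 1 in either direction.

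SERPIND1 encodes heparin cofactor II, an inhibitor of thrombin that dermatan sulfate and heparin activate and that is known mainly as a liver product of plasma. It stood at 7.88, 8.72 and 8.88 FPKM in the siPGC1a libraries, against 2.87, 2.28 and 2.53 FPKM in the siNC libraries. The lowest siPGC1a library was 5.01 FPKM above the highest siNC library. With means of 8.49 ± 0.536 FPKM in siPGC1a and 2.56 ± 0.299 FPKM in siNC (SD, n = 3 each), its ratio of 3.32 was the largest among the members. It was reached or passed by 12 of the 12020 genes, SERPIND1 included. These values rest on about 514 to 590 reads per siPGC1a library and 149 to 194 per siNC library.

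SERPINI1 encodes neuroserpin, which inhibits tissue-type activator and is known mainly from neurons. Its level was low, with 1.21, 1.10 and 1.38 FPKM in the siPGC1a libraries, against 1.66, 1.6 and 1.54 FPKM in the siNC libraries. All siPGC1a values were lower, but the gap between the groups was only 0.156 FPKM, and the siPGC1a values varied more (coefficient of variation 11.5% in siPGC1a and 3.75% in siNC). Means were 1.23 ± 0.141 FPKM in siPGC1a and 1.6 ± 0.06 FPKM in siNC (SD, n = 3 each), a ratio of 0.771 that rests on 67 to 87 reads per siPGC1a library and 94 to 106 per siNC library. Counting error at these reads was not separated from other spread, so nothing is read from the gap or from the difference in variation.

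The groups did not overlap for 5 of the 6 members, with siPGC1a higher for 3 (PLAT, PLAUR and SERPIND1) and lower for 2 (SERPINE2 and SERPINI1). Over all tested genes the groups did not overlap with siPGC1a higher for 29.8% and with siPGC1a lower for 27.4%. Since the members were picked on this contrast, nothing is read from their count. By level, SERPINE2 led in both groups and PLAT came next. In siPGC1a, SERPIND1 and PLAUR followed, and in siNC PLAUR stood above SERPIND1, without overlap of their libraries in either group. SERPINI1 and PLAU were the lowest in both.

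As a further description, set up after the values were seen, SERPINE2 FPKM were divided by PLAT FPKM within each library. The quotient was 12.8, 12.3 and 12.9 in siPGC1a libraries, against 18.4, 17.8 and 18.3 in siNC libraries. SERPINE2 transcript therefore exceeded PLAT transcript in all 6 libraries, by 12.7 ± 0.354 times in siPGC1a and 18.2 ± 0.287 times in siNC (SD, n = 3 each). FPKM of different genes depend on the exon lengths used, and those of the authors are not stated. The size of the quotient is therefore rough, and its SD does not cover this. For 4 serpins that inhibit the activators (SERPINE2, SERPINA5, SERPINB2 and SERPINI1) the summed level was 793, 777 and 814 FPKM in siPGC1a and 978, 931 and 961 FPKM in siNC. SERPINE2 made up 80.9 to 81.9% of that sum in siPGC1a and 83.7 to 84.9% in siNC. These are transcript levels, which give no measure of secreted or active protein. In bulk samples fewer cells with a transcript and less of it per cell cannot be told apart.

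Another 31 serpin genes were examined next, including some that have no protease target. Of these, 10 were listed at 0 in every library, 10 were above 0 but below the filter, and 11 were tested. By limma, 1 rose, 5 fell and 5 did not pass, with a median log2 difference of -0.05, against a background of 25.6% of tested genes higher and 22.5% lower and a median of 0.007. The one that rose was SERPINB8, an intracellular serpin, which rose to 2.35 ± 0.169 FPKM in siPGC1a, against 1.44 ± 0.043 FPKM in siNC (n = 3 each, ratio 1.64, limma adjusted p = 0.000223).

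SERPINH1, known as HSP47, a collagen chaperone of the endoplasmic reticulum without inhibitory activity, fell. It had 151, 154 and 145 FPKM in siPGC1a, against 241, 249 and 244 FPKM in siNC (ratio 0.614, log2 difference -0.70, SE 0.0364, limma adjusted p = 1.4e-06). SERPINF1, the angiogenesis inhibitor PEDF, fell as well, with a ratio of 0.77, as did SERPINB7 at 0.697 and SERPINB6 at 0.839 (limma adjusted p of 0.000299, 0.000397 and 0.000978). SERPING1, the C1 inhibitor of complement, fell to 1.71 ± 0.213 FPKM in siPGC1a, against 2.14 ± 0.142 FPKM in siNC (n = 3 each, limma adjusted p = 0.0304). That call ended with no minimum (0.123), with quantile normalization (0.0839) and without siPGC1a replicate 1 (0.105), siPGC1a replicate 2 (0.0686), siNC replicate 2 (0.104) or siNC replicate 3 (0.0585). Its adjusted p ranged between 0.0113 and 0.123.

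SERPINA5, the protein C inhibitor, which also inhibits urokinase, was the third most abundant serpin. It stood at 146 ± 1.02 FPKM in siPGC1a and 147 ± 2.26 FPKM in siNC (n = 3 each, limma adjusted p = 0.784). It passed only with quantile normalization, at a log2 difference of -0.08 (adjusted p = 0.0492, in a range of 0.0492 to 0.991). SERPINB1, SERPINA1, SERPINA3 and SERPINA6 did not pass either, at limma adjusted p of 0.42, 0.122, 0.108 and 0.778. For SERPINA1 the groups did not overlap, and SERPINA3 shares 31.8% of its exon bases with a gene on the same strand. SERPINA3 passed without siPGC1a replicate 3 (0.0205), and with quantile normalization SERPINA3, SERPINA1 and SERPINB1 passed (0.0466, 0.0308 and 0.0456). The ranges over settings were 0.0205 to 0.301 for SERPINA3, 0.0308 to 0.296 for SERPINA1 and 0.0456 to 0.789 for SERPINB1. Summed over the 34 serpin rows used here, the members included, the level was 1018, 1007 and 1037 FPKM in siPGC1a and 1297, 1256 and 1282 FPKM in siNC. SERPINE2 took 62.4 to 64.3% of it in siPGC1a and 62.1 to 64.1% in siNC, so its share overlapped between the groups while both SERPINE2 and the sum were lower in siPGC1a.

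**Figure D3:**
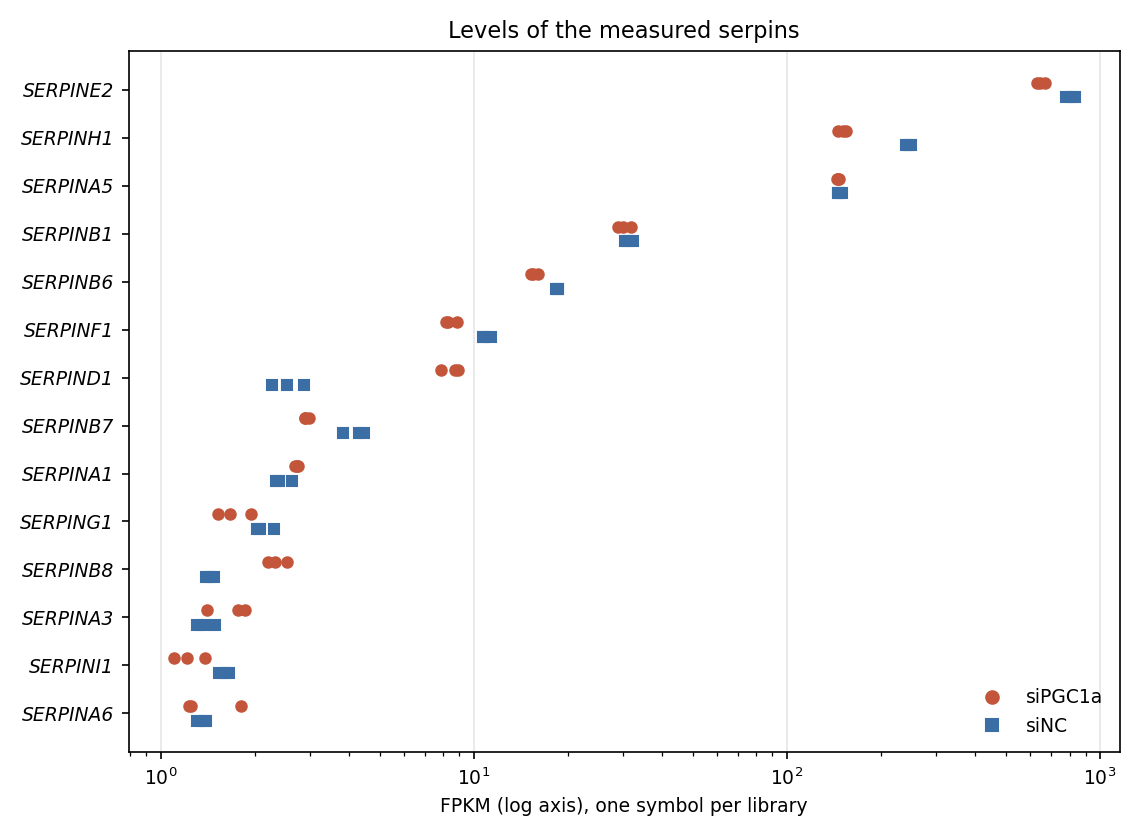
Levels of 14 serpins with a mean of at least 1 FPKM (horizontal axis, FPKM on a log scale) with 1 symbol per library, circles for siPGC1a and squares for siNC; genes run from the most abundant at the top. SERPINE2 leads at 628 to 667 FPKM in siPGC1a and 779 to 831 FPKM in siNC, and SERPIND1 shows the widest separation of the groups.

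Other genes of the plasminogen system came from 7 lists of 59 genes, of which 58 had a row and 27 were tested. Serpins on these lists are also among those above. By limma 2 rose (TFPI2 and LRP8), 17 fell and 8 did not pass, that is 7.41% higher and 63.0% lower, with a median log2 difference of -0.21. Without siPGC1a replicate 1 or siNC replicate 3 only TFPI2 remained past the threshold and higher. The background was 25.6% higher and 22.5% lower with a median of 0.007, and no test of the lists as sets was made. The same background holds for the counts of each list below. Since the lists were chosen with earlier results of these data known, nothing is read from these counts.

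Plasminogen itself, PLG, was listed at 0 in all 6 libraries. Of its surface binding proteins 2 fell, 0 rose and 2 did not pass. S100A10, which forms a plasminogen-binding heterotetramer with annexin A2, fell to 190, 206 and 211 FPKM in siPGC1a, against 251, 241 and 261 FPKM in siNC (ratio 0.805, limma adjusted p = 0.000601). Its partner ANXA2 fell to 90.6 ± 4.67 FPKM in siPGC1a, against 106 ± 3.6 FPKM in siNC (n = 3 each, limma adjusted p = 0.00359). ENO1, a glycolytic enzyme that also binds plasminogen, averaged 868 FPKM in siPGC1a and 869 FPKM in siNC (limma adjusted p = 0.984). It was higher by 0.07 with quantile normalization (adjusted p = 0.033, in a range of 0.033 to 1). PLGRKT, a membrane plasminogen receptor, averaged 11.5 FPKM in siPGC1a and 10.5 FPKM in siNC (limma adjusted p = 0.29). ANXA2 and ENO1 have near-identical pseudogene copies, so their counts are uncertain.

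Among inhibitors of the activators and of plasmin, 2 were tested, of which A2M fell and SERPINA5 did not pass. A2M, the broad protease trap alpha-2-macroglobulin, fell to 54.7 ± 0.99 FPKM in siPGC1a, against 62.8 ± 1.73 FPKM in siNC (n = 3 each, limma adjusted p = 0.0022). The list of endocytic receptors that clear protease and inhibitor complexes, which also holds their chaperone LRPAP1, gave 1 higher, 4 lower and 1 not past of 6 tested. SORT1 (sortilin) fell to 9.07 FPKM in siPGC1a, against 12.8 FPKM in siNC, and IGF2R, a mannose 6-phosphate receptor that binds uPAR, fell to 13.0 FPKM in siPGC1a, against 17.9 FPKM in siNC (limma adjusted p of 5.66e-05 and 4.52e-05). LRP1, the main clearance receptor for these complexes, fell to 19.3 ± 2.1 FPKM in siPGC1a, against 24.1 ± 1.34 FPKM in siNC (n = 3 each, limma adjusted p = 0.00623). VLDLR fell too, with a ratio of 0.835 (limma adjusted p = 0.00826). LRP8 rose with a ratio of 1.15 (limma adjusted p = 0.0163), and LRPAP1, the chaperone of this receptor family, did not pass (ratio 1.03, limma adjusted p = 0.431). The LRP1 call ended when every gene above 0 was tested (adjusted p = 0.0557, in a range of 0.00216 to 0.0557). The LRP8 call ended without siPGC1a replicate 1 (0.0507) and without siNC replicate 3 (0.0579), in a range of 0.00715 to 0.0579.

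Of the urokinase receptor's partners, 3 integrin alpha chains fell and both beta chains did not pass. ITGA5 fell to 64.0 FPKM in siPGC1a, against 86.9 FPKM in siNC, and ITGA3 to 36.6 FPKM in siPGC1a, against 45.6 FPKM in siNC (limma adjusted p of 3.52e-05 and 0.000253). ITGAV fell with a ratio of 0.917 (limma adjusted p = 0.0367), a call that ended under 7 other settings, among them without siPGC1a replicate 2 (0.0945), siPGC1a replicate 3 (0.088), siNC replicate 1 (0.111), siNC replicate 2 (0.0819) and siNC replicate 3 (0.0712), in a range of 0.00781 to 0.111. ITGB1 averaged 121 FPKM in siPGC1a and 124 FPKM in siNC, and ITGB3 42.8 FPKM in siPGC1a and 43.8 FPKM in siNC (limma adjusted p of 0.577 and 0.508). AC068234.1, listed at 0, shares 51.6% of the exon bases of ITGB3 on the same strand, so the counts of ITGB3 are uncertain.

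On the list of tissue factor, thrombin and its receptors, TFPI2 rose. TFPI2 is a Kunitz inhibitor of plasmin, trypsin and the tissue factor and factor VIIa complex that is laid down in matrix. It had 19.9, 20.4 and 20.8 FPKM in siPGC1a, against 7.89, 9.11 and 8.24 FPKM in siNC (ratio 2.42, log2 difference 1.18, SE 0.0532, limma adjusted p = 6.57e-07). F3, tissue factor itself, fell to 0.637, 0.661 and 0.852 FPKM in siPGC1a, against 1.47, 1.26 and 1.3 FPKM in siNC (ratio 0.533, limma adjusted p = 0.000859). PROCR, the endothelial protein C receptor, fell with a ratio of 0.897 (limma adjusted p = 0.01), a call that ended without siNC replicate 3 (0.0646, in a range of 0.00168 to 0.0646). F2R, the thrombin receptor PAR1, averaged 55.4 FPKM in siPGC1a and 57.2 FPKM in siNC, and PROS1, protein S, 2.29 FPKM in siPGC1a and 2.57 FPKM in siNC (limma adjusted p of 0.336 and 0.238). F2, thrombin's own gene, stayed at or below 0.016 FPKM in all libraries.

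Of 10 genes on the list of pericellular serine proteases and Kunitz inhibitors, 7 lay below the filter. The 3 tested, all proteases, fell, where 22.5% of all tested genes were lower. PRSS23, a secreted protease, had 28.2, 28.5 and 28.9 FPKM in siPGC1a, against 48.6, 47.6 and 48.7 FPKM in siNC (ratio 0.591, log2 difference -0.74, SE 0.0356, limma adjusted p = 9.05e-07). FZD4 overlaps 11.9% of the exon bases of PRSS23 on the other strand, and no source used here says whether reads were counted by strand. HTRA1 and FAP fell to ratios of 0.853 and 0.818 (limma adjusted p of 0.000914 and 0.00745). Of 4 genes on the growth factor substrate list, 2 lay below the filter, and the 2 tested fell as well. LTBP1, which tethers latent TGF-beta to matrix, fell to 5.08 ± 0.237 FPKM in siPGC1a, against 9.08 ± 0.303 FPKM in siNC, and PDGFC, a substrate of tissue-type activator, to 2.16 ± 0.0544 FPKM in siPGC1a, against 3.19 ± 0.189 FPKM in siNC (n = 3 each, limma adjusted p of 5.49e-06 and 0.00028).

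**Figure D4:**
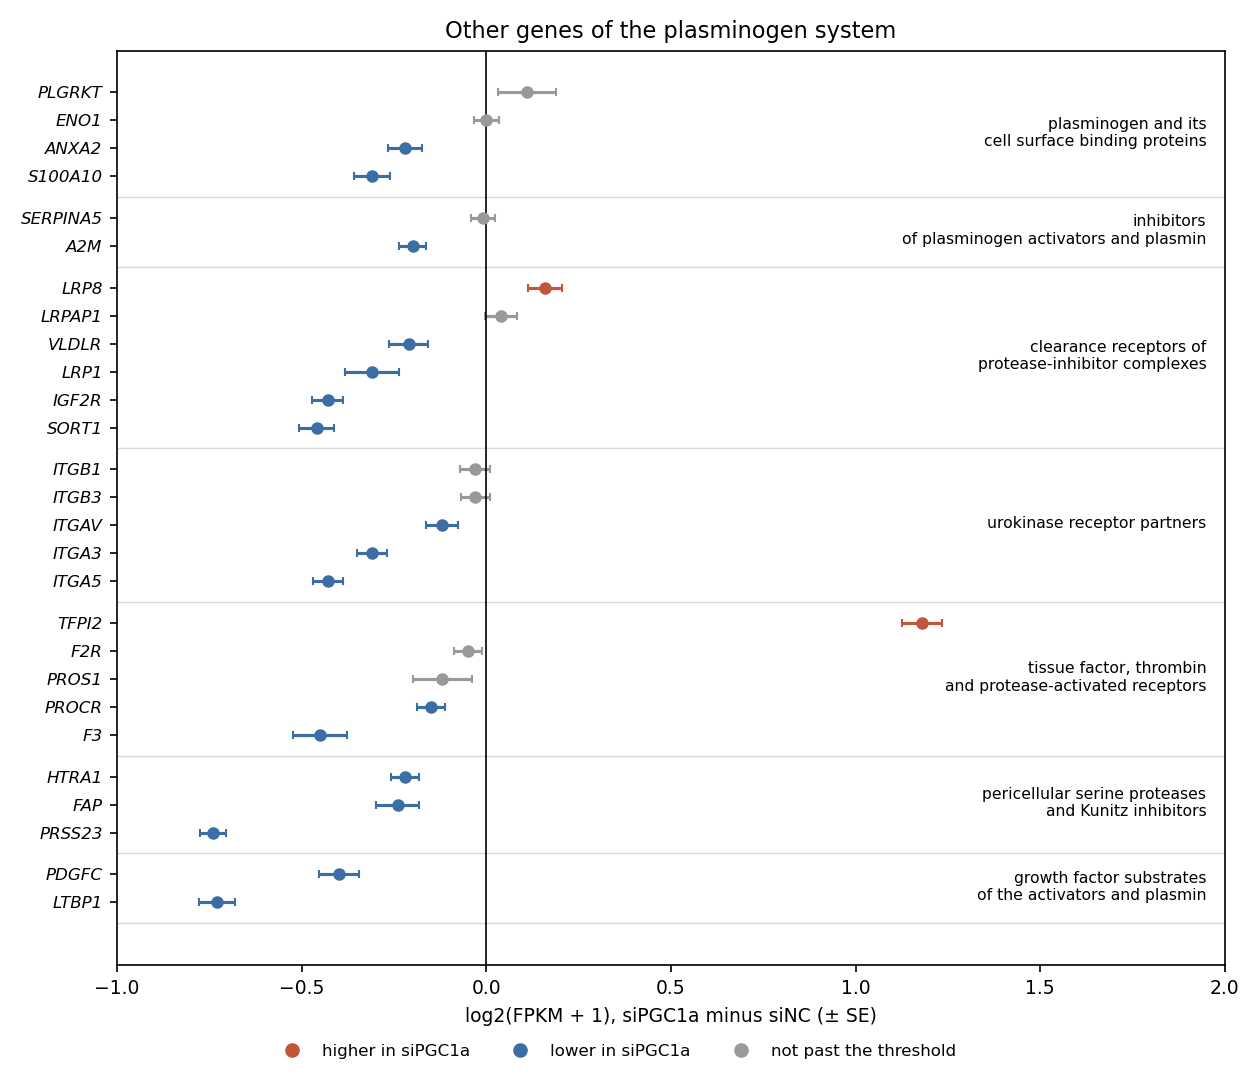
Difference in log2(FPKM + 1), siPGC1a minus siNC (horizontal axis, ± SE from limma, n = 3 per group), for the 27 tested genes of the 7 lists; red marks 2 genes past the threshold and higher, blue 17 past it and lower, and grey 8 that did not pass. TFPI2 stands farthest to the right at 1.18 and PRSS23 farthest to the left at -0.74.

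For each member past the filter, the 3 tested genes with the most similar profile were found by Pearson's r of log2(FPKM + 1) over the 6 libraries. These r mostly carry the difference between the groups, which all the points share. SERPIND1 was followed most closely by IL24 (r = 0.9996), RHOA (0.9994) and SH3KBP1 (0.999), and 169 genes had an r over 0.99 with it. PLAT was nearest to MED19, ARPC2 and AGK (0.9992 to 0.9989) and PLAUR to PPM1G, POLR3D and FGFRL1 (0.9999 to 0.9976). SERPINE2 was nearest to PPP2R1B, KNSTRN and TXNIP (0.9987 to 0.9985), and SERPINI1 to ITM2B, MFSD11 and ME1 (0.995 to 0.994), with 9 genes over 0.99 for SERPINI1. An r over 0.99 was reached by 137 genes for PLAT, 45 for PLAUR and 107 for SERPINE2, so the genes named are few of many.

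The 6-base word ACACCT, which earlier results had picked out in 3' UTRs, was looked up in the longest annotated 3' UTR of each gene (GENCODE v29). Of 2404 lower genes with such a UTR 48.6% had it, of 2936 higher genes 22.7%, and of 5450 that did not pass 32.8%. The word came from earlier results of these data, so these shares are a description and no independent support for it. Median 3' UTR lengths in these sets were 1774, 1099 and 1370 bases. The shares thus follow the order of the lengths, and the part of length was not tested. Of the 6 members only SERPIND1, the one with the largest ratio, held it, once, with the word in capitals within 30 bases of its 3' UTR.
SERPIND1: ccccatccttgcACACCTgactctgtcact

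Neither SERPINE2 nor SERPINI1, the members that were lower in siPGC1a, held the word in 3' UTRs of 755 and 245 bases. Among the 11 other tested serpins it stood in 2 of the 5 that fell (SERPINB7 and SERPINH1), in 0 of the 1 that rose and in 1 of the 5 that did not pass (SERPINA1).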

How the data were processed

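Gene expression was measured by RNA sequencing (stranded poly(A) libraries, single reads) in 3 siPGC1a and 3 siNC libraries of WM3248 cells. The deposited values were FPKM per gene and library, computed by the authors. Per the submitters' processing notes, the build was hg19 and the tools were STAR, Picard, featureCounts and DESeq2, listed without version or role.

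Depth was recovered from the steps of short miRNA genes with exon lengths of GENCODE v29 (55001 symbols matched). Of the values worth 20 reads or fewer, 91.5 to 92.0% lay within 0.1 read of a whole number. Reads of a gene are approximate where the authors' exon length differed: those of SERPIND1 did not come out whole, those of PLAU and SERPINI1 did. Libraries of a group were not copies of each other (chi-square per degree of freedom 1.95 to 5.86 within groups and 27.1 to 36.3 between).

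Genes with a mean of at least 1 FPKM, and PPARGC1A, were tested on log2(FPKM + 1) with limma 3.58.1 in R 4.3.3 (intensity trend, two-sided, no replicate block) and Benjamini-Hochberg adjustment over 12020 genes, at a threshold of 0.05. Log2 differences are on that scale, where changes of low genes look too small, whereas ratios are of mean FPKM. The test was checked on simulated data. Promoters came from RefSeq (GRCh38.p14).

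The members and lists were chosen with earlier results of these data known. Named genes were the members, PPARGC1A, every other tested serpin, from each list up to 4 genes with the smallest adjusted p in each direction and the 2 most abundant that did not pass, the leading marker of each cell type, and the 3 genes most like each member. DCT, TYRP1, PTPRC, KRT1, PLG and F2 were named outside this rule, after their values were seen. PECAM1 and MRC2 were not analysed here, and 1 further listed gene is not reported here and stays out of the list counts and sums. Alternatives covered the pseudocount, filter, scaling, trend, replicate block and leaving out each library.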

Additional observations from a re-analysis of the deposited data

How the results depend on the processing

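The ratios of the members kept their side of 1 in every setting, apart from PLAU, whose ratio lay between 0.878 and 1.12 when 1 library was left out. For the other members the groups did not overlap, so leaving out 1 library could not have moved a ratio across 1. The filter, trend and replicate block do not enter these ratios, so nothing is read from their keeping their side. Without 1 library the ratios lay between 1.14 and 1.16 for PLAT, 1.23 and 1.29 for PLAUR, 0.787 and 0.812 for SERPINE2, 3.15 and 3.54 for SERPIND1 and 0.724 and 0.812 for SERPINI1. With 1 added to both means, the ratio was 2.67 for SERPIND1 and 0.859 for SERPINI1, since both are low. At a minimum of 5 FPKM fewer genes were tested, with 1607 lower genes in all, 1 higher gene on the plasminogen system lists, and 0 higher and 3 lower among the other serpins, since SERPINB8 is below that minimum. Without 1 library there were 1 to 2 higher genes on the lists and 1 to 2 higher among the other serpins. Quantile normalization gave 3 higher serpins and an ENO1 difference of 0.07. The replicate numbers gave no steady pairing of the libraries (r of same-numbered deviations 0.077, 0.261 and -0.058). The highest r of all was the 0.261 of the replicates numbered 2, whereas siPGC1a replicate 3 correlated best with siNC replicate 1, at 0.254. Whether the libraries were paired cannot be told from these r. With the replicate block 3253 genes were higher and 2826 lower, against 3075 and 2707 without it, and 2 and 17 on the plasminogen system lists. Of 57 single genes compared, 44 kept their call in every setting run for them and 13 did not. Calls not yet described that changed were S100B when every gene above 0 was tested (adjusted p = 0.0515), THY1, which passed under 3 settings (one of them the replicate block, 0.0454), and MFSD11 under 6 (up to 0.0734). Depth limits PLAU most.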

Other observations

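On the plasminogen system lists, 31 genes with a row lay below the filter and were not tested. Those named here were picked after their values were seen, and in each the groups did not overlap. In others, among them F2RL2, SERPINF2, SPINT1 and THBD, the groups overlapped, so nothing is read from the directions. SERPINB2, plasminogen activator inhibitor 2, had 0.4, 0.507 and 0.49 FPKM in siPGC1a, against 0.276, 0.299 and 0.375 FPKM in siNC, so that it was higher in every siPGC1a library. F2RL1, the trypsin-sensitive receptor PAR2, was at 0.698 ± 0.078 FPKM in siPGC1a and 0.515 ± 0.0811 FPKM in siNC (SD, n = 3 each), without overlap. TFPI, the paralog of TFPI2 and main inhibitor of the tissue factor pathway, was at 0.518 ± 0.0381 FPKM in siPGC1a and 0.744 ± 0.0551 FPKM in siNC (n = 3 each), below it in every siPGC1a library, whereas TFPI2 was higher. LRP2 and SORL1, further receptors of the LRP1 family, averaged 0.328 and 0.466 FPKM in siPGC1a, against 0.585 and 0.595 FPKM in siNC. PDGFD, a growth factor that urokinase can activate, averaged 0.293 FPKM in siPGC1a and 0.46 FPKM in siNC, without overlap.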
